A study of Rattus norvegicus with 18 samples.

Results

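*Vdr*, *Rxra* and *Rxrb*, 3 of the 32882 genes listed in each table of normalized counts, were examined in rat T cells that migrate into the central nervous system. They encode the vitamin D receptor and the retinoid X receptors alpha and beta. The genes were selected by name, and *Vdr* was chosen from its own values in the *Ets1* knockout (KO), where it differed from control in opposite directions in the spinal cord and the spleen. Those differences are therefore given as a description, with no test. The *Grk2* knockout was not used in the choice and was tested.

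The cells were CD4+ T-MBP cells, which recognise myelin basic protein and cause experimental autoimmune encephalomyelitis in Lewis rats. All cells were sorted on day 3 after transfer, and 3′ bulk mRNA sequencing gave 18 libraries in 6 groups of 3. From the spinal cord parenchyma there were control libraries (labelled NT, genotype WT) and *Ets1*-KO libraries. From the spleen there were control and *Ets1*-KO libraries and, in a separate experiment, control and *Grk2*-KO libraries. According to the methods, genes were edited by electroporating Cas9 with a guide RNA into a pool of cells rather than a clone. Control cells received a non-targeting guide and carried BFP, whereas KO cells carried EGFP, so that genotype and fluorescent protein cannot be told apart. The methods state transfer of both into the same animals for the parenchymal cells, and for the splenic libraries this was not stated in the sources used here. No label says that the parenchymal and splenic *Ets1* libraries were made together. The words *Ets1* experiment below name the edited gene only. Parenchymal cells were purified over a Percoll gradient and splenic cells with a CD4+ T cell enrichment kit before sorting, so that tissue and purification cannot be told apart either. The rats' ages were not given in the sample labels. Because nothing in the labels says that libraries of a group came from separate animals, the p values refer to spread between libraries. How that spread was pooled over genes is given with the processing.

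The vitamin D receptor is a nuclear receptor that binds calcitriol, the active form of vitamin D, and then regulates transcription from DNA as a heterodimer with a retinoid X receptor. Retinoid X receptors are shared partners, which also pair with the receptors for retinoic acid, thyroid hormone, oxysterols and fatty acids. Naive T cells hold little vitamin D receptor and acquire it upon activation, and its ligand is known to restrain proinflammatory cytokines of T helper cells. *Ets1* encodes a transcription factor that binds DNA at sites with a GGAA core, and *Grk2* a kinase that desensitises G protein-coupled receptors.

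*Vdr* (ENSRNOG00000054420) is annotated on the minus strand of chromosome 7 in Rnor_6.0 (139342062 to 139394166), *Rxra* (ENSRNOG00000009446) on chromosome 3 from 6211788 to 6295908 on the plus strand, and *Rxrb* (ENSRNOG00000000464) on chromosome 20 from 3823041 to 3829140 on the plus strand. All 3 are annotated as protein coding. The stretches of 250 bases before the RefSeq starts of *Vdr* and *Rxrb* are shown because the edited gene encodes a factor that binds DNA. They were taken from the newer build GRCr8, at chr7:130916758-130917007 (minus strand) and chr20:4824660-4824909 (minus strand), and read 5′ to 3′. Capitals mark the ETS core GGAA or, on the other strand, TTCC.
Vdr: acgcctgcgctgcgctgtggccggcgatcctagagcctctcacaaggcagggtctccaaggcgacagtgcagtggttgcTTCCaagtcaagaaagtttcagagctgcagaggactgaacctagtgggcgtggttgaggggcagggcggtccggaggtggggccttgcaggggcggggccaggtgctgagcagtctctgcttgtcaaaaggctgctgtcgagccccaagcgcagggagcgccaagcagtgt
Rxrb: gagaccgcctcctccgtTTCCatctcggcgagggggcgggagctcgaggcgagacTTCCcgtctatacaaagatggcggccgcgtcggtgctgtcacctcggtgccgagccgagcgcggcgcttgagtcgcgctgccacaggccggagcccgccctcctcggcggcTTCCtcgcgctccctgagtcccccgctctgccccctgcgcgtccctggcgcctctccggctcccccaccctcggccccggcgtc
The *Vdr* stretch held 1 ETS core, 171 to 168 bases before the start, and the *Rxrb* stretch held 3. The corresponding stretch of *Rxra* held 0. Of 33469 promoters of the same length 93.2% held at least 1 such core and 55.5% at least 3, so that a match is common. The longer ETS core CCGGAA, searched on both strands and found in 12.6% of promoters, was in none of the 3 stretches, and neither was the half-site AGGTCA of nuclear receptors, found in 14.1%. The GC box GGGCGG occurred in 2 copies in each of the 3 stretches, a number that 14.8% of promoters reached. These stretches are GC-rich, with 63.6% G and C for *Vdr*, 82.8% for *Rxra* and 74% for *Rxrb*, against a median of 51.2%. No binding was measured here, and the matches are letters only.

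Each library held between 898092 and 2248258 reads on genes. In the spleen of the *Ets1* experiment the KO libraries, with 1909862 to 2248258 reads, were deeper than the control libraries, with 898092 to 1213485. Values are normalized counts, that is, reads per gene divided by a size factor of the library, and each table was scaled separately. T cell markers were present throughout, and the summed level of 8 of them ranged from 3457 to 4902 normalized counts over the 18 libraries, although *Cd4* itself stayed at or below 49.1. In the parenchyma this sum was 4345 to 4693 in control and 4706 to 4902 in *Ets1*-KO libraries. Of 12 myeloid markers *Adgre1* and *Mrc1* were at 0 in every library, and the sum of all 12 was 27.3 to 54.1 in parenchymal control and 47.5 to 67.7 in parenchymal *Ets1*-KO libraries, of which *Lyz2* gave between 16.9 and 47.6, against at most 11.6 in the spleen. Of 6 B cell markers *Pax5* and *Cd22* were at 0 in every library, and their sum stayed at or below 13.1. Of 9 neural and glial markers *Aqp4* was at 0 in every library. Their sum was 52.1 to 93.1 in the parenchyma and 22.6 to 46.6 in the spleen, and *Mbp* gave between 39.7 and 82.8 in the parenchyma. The part of other cells in the results below was not tested. In bulk samples fewer cells that express a gene and less RNA per cell cannot be told apart.

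The edited genes were looked at first. In the parenchyma *Ets1* mRNA averaged 2400 ± 150 normalized counts (SD, n = 3) in control libraries and 2551 ± 183 in *Ets1*-KO libraries, and 2077 ± 135 and 2000 ± 324 in the spleen. Its log2 fold changes were 0.09 and −0.06 (limma adjusted p = 0.56 and 0.854). Where the guide cuts and which part of the transcript the reads cover were not examined here, so that this level checks neither the edit nor the labels. *Grk2* fell from 158 ± 14.1 to 68.3 ± 17.4 normalized counts (SD, n = 3; log2 fold change −1.22, standard error 0.13, limma adjusted p = 1.76e-12). Without replicate 2 its adjusted p was 0.053, and without limma's trend of the variance on the mean it was 0.496.

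In parenchymal cells *Vdr* was higher in *Ets1*-KO than in control libraries. Control libraries 1 to 3 held 96.2, 79.0 and 86.5 normalized counts of *Vdr*, and *Ets1*-KO libraries 1 to 3 held 147.6, 133.4 and 134.9. The lowest KO library was above the highest control library, so that the groups did not overlap. The mean was 87.2 ± 8.63 (SD, n = 3) in control and 138.6 ± 7.79 in *Ets1*-KO cells. The log2 ratio of KO to control was 0.61, 0.75 and 0.64 in the 3 replicate numbers, a mean of 0.67 ± 0.07 (SD, n = 3) or 1.59-fold on the scale of normalized counts plus 1. These values rest on 84 to 146 reads per library. By this ratio *Vdr* ranked 121st from the highest of 7002 genes tested, and all KO libraries were above all control libraries for 551 of them (7.87%), a background from which nothing is read about *Vdr*, since the contrast chose it.

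In splenic cells of the *Ets1* experiment *Vdr* was lower in *Ets1*-KO libraries. Control libraries 1 to 3 held 24.1, 33.3 and 29.8 normalized counts, and *Ets1*-KO libraries 1 to 3 held 6.16, 8.68 and 11.2. Again the groups did not overlap, this time with every KO library below every control library. The mean was 29.1 ± 4.68 (SD, n = 3) in control and 8.70 ± 2.54 in *Ets1*-KO cells, and the log2 ratios were −1.81, −1.83 and −1.33, with a mean of −1.65 ± 0.28 (SD, n = 3). On the scale of normalized counts plus 1 the control level was 3.15-fold the KO level. This was the lowest ratio of the 6979 genes tested in the spleen, of which 620 (8.88%) had all KO libraries below all control libraries. The ratio of *Vdr* rests on few reads, namely 22, 31 and 19 in control and 9, 14 and 18 in *Ets1*-KO libraries. The KO libraries were the deeper ones. When all libraries were thinned to an equal number of reads in a single random draw the ratio was −1.97, and with a pseudocount of 5 it was −1.32. The thinned libraries hold still fewer reads of *Vdr*, so that this draw does not settle the part of depth.

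**Figure D1:**
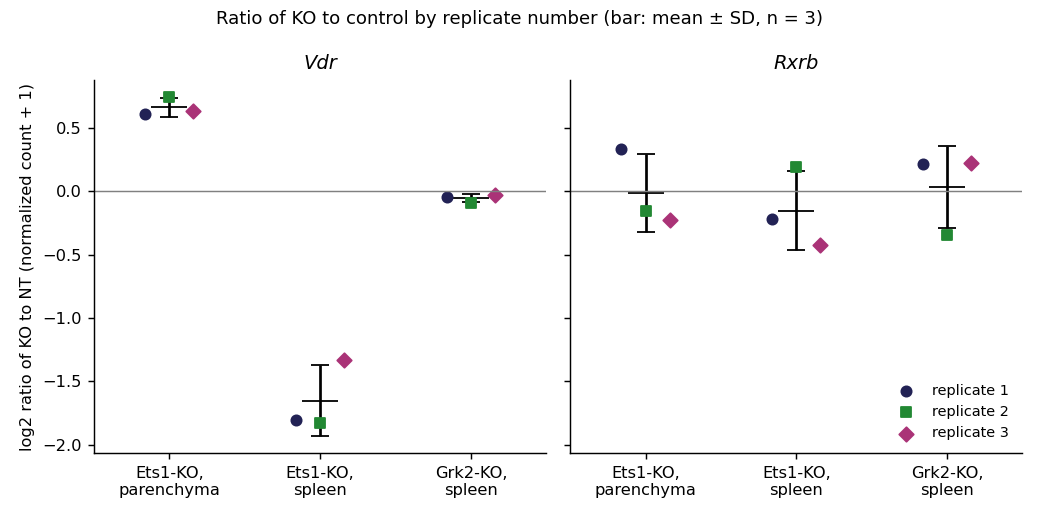
Log2 ratio of KO to control (normalized count + 1) of *Vdr* and *Rxrb* for each replicate number in the 3 comparisons, with bars for the mean ± SD (n = 3). For *Vdr* the 3 ratios lie between 0.61 and 0.75 in the parenchyma, between −1.83 and −1.33 in the spleen of the *Ets1* experiment and near 0 for *Grk2*, whereas those of *Rxrb* lie on both sides of 0 in all 3 comparisons.

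The ratio of *Vdr* was thus 2.32 higher on the log2 scale in the parenchyma than in the spleen, and this difference was used to choose the gene. Of the 6520 genes tested in both tissues, 39 (0.598%) had all *Ets1*-KO libraries above control in the parenchyma and all below control in the spleen. Among these 39 genes *Vdr* had the largest difference between tissues. In the plot of all genes by their change in both tissues it lies alone at the lower right.

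**Figure D2:**
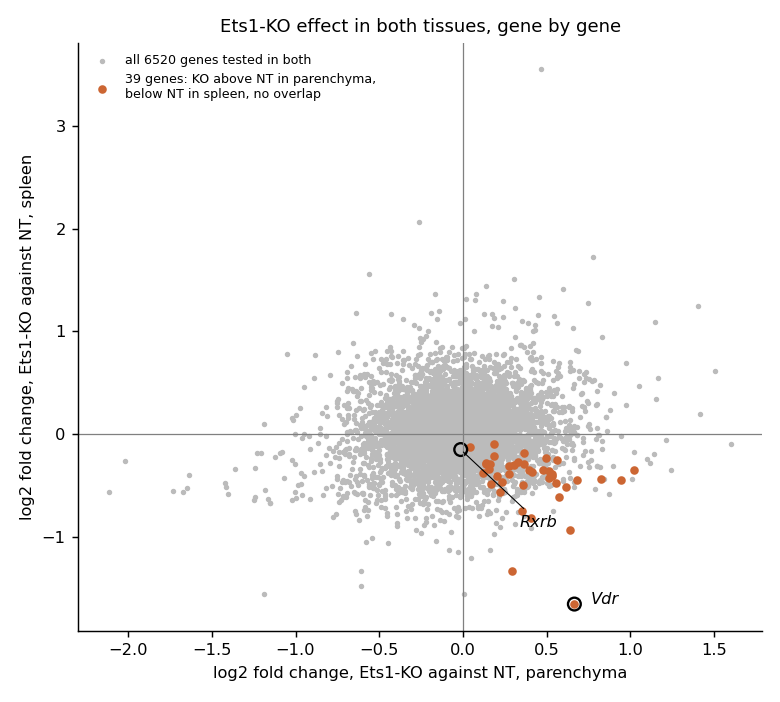
Log2 fold change of *Ets1*-KO against control in the parenchyma (x axis) and in the spleen (y axis) for the 6520 genes tested in both. Orange points are the 39 genes with KO libraries above control in the parenchyma and below it in the spleen without overlap, and circles mark *Vdr* (0.67 and −1.65) and *Rxrb* (−0.01 and −0.15).

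For *Grk2* editing, which the choice of genes did not use, no difference in *Vdr* was detected. Control libraries 1 to 3 held 10.8, 9.98 and 11.1 normalized counts and *Grk2*-KO libraries 1 to 3 held 10.5, 9.32 and 10.9, so that the groups overlapped. The log2 fold change was −0.05 with a 95% confidence interval from −0.80 to 0.69 (limma adjusted p = 0.987; exact permutation test over all 6 libraries, two-sided, p = 0.6, with 0.1 as the smallest p possible). The 9 to 12 reads per library leave room for a change of up to that interval. Of the 6985 genes tested in this comparison 109 (1.56%) had an adjusted p under 0.05. Of the 2 members tested, *Vdr* and *Rxrb*, 0 did, and 0 had an unadjusted p under 0.05. With edgeR's quasi-likelihood test 0 of the 2 passed, and DESeq2 gave neither an adjusted p.

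The level of *Vdr* was then set side by side over all 6 groups as reads per 1000000 reads on genes (RPM), with no test across tables. It was highest in parenchymal *Ets1*-KO cells (98.0 ± 6.25, SD, n = 3), followed by parenchymal control cells (61.5 ± 7.27), splenic control cells of the *Ets1* experiment (21.7 ± 3.87), splenic control cells of the *Grk2* experiment (8.19 ± 0.42), splenic *Grk2*-KO cells (7.90 ± 0.64) and splenic *Ets1*-KO cells (6.45 ± 1.65). The first 3 groups did not overlap with their neighbours in this order, whereas the ranges of the last 3 overlapped. Parenchymal control cells thus held 2.83-fold the *Vdr* level of splenic control cells of the *Ets1* experiment. Among *Ets1*-KO cells the ratio of the tissues was 15.2. Whether the libraries of the 2 tissues were made together is not stated. The control cells of the 2 spleen experiments, which share tissue, time point and guide type, differed 2.65-fold. The level of splenic *Ets1*-KO cells was 0.788 times that of the control cells of the *Grk2* experiment. What separates the 2 spleen experiments was not tested.

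**Figure D3:**
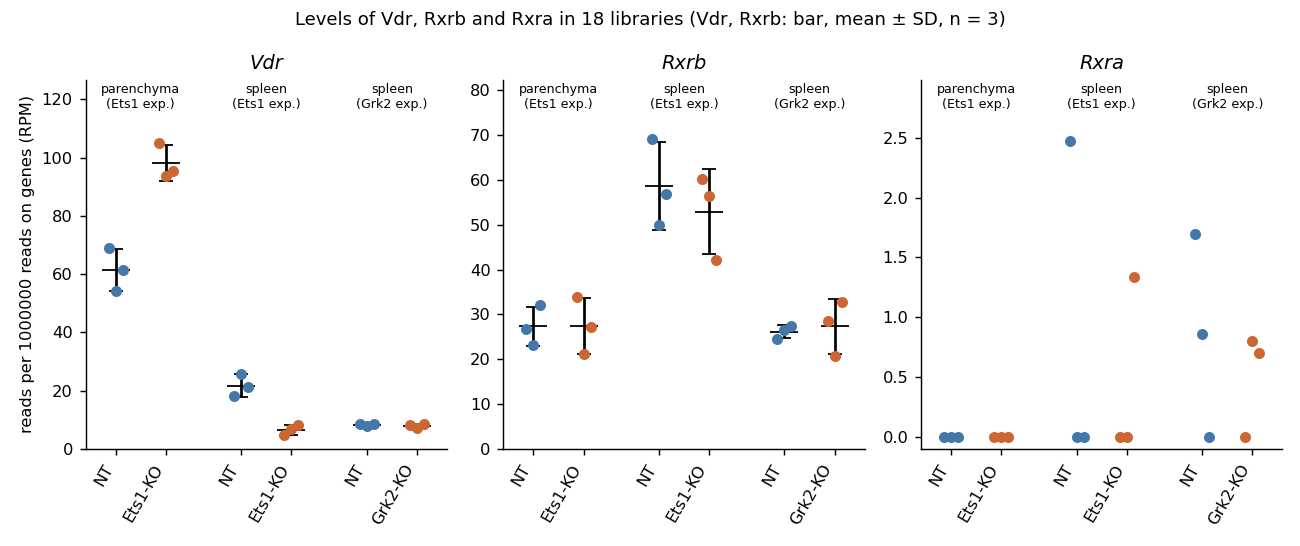
Reads per 1000000 reads on genes (RPM) of *Vdr*, *Rxrb* and *Rxra* in each of the 18 libraries, by tissue, experiment and genotype (blue, control; orange, KO), with bars for the mean ± SD (n = 3) of *Vdr* and *Rxrb*. *Vdr* spans 4.71 to 105 RPM, *Rxrb* is highest in both spleen groups of the *Ets1* experiment, and *Rxra* is at 0 in all 6 parenchymal libraries.

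*Rxrb*, a partner of the vitamin D receptor, differed little between genotypes. In the parenchyma control libraries 1 to 3 held 37.4, 33.9 and 45.2 normalized counts of *Rxrb* and *Ets1*-KO libraries 1 to 3 held 47.5, 30.3 and 38.5. Highest and lowest values were both KO libraries, and the mean log2 ratio was −0.01 ± 0.31 (SD, n = 3). In the spleen of the *Ets1* experiment control libraries held 91.9, 64.5 and 79.9 and *Ets1*-KO libraries 78.7, 73.8 and 59.3, with a mean log2 ratio of −0.15 ± 0.31 (SD, n = 3). Here too the groups overlapped. In the *Grk2* experiment control libraries held 31.4, 34.4 and 36.4 and *Grk2*-KO libraries 36.7, 26.9 and 42.7. The log2 fold change was 0.03 with a 95% confidence interval from −0.41 to 0.48 (limma adjusted p = 0.986; two-sided exact permutation test, p = 0.8). 

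Across groups *Rxrb* followed another order than *Vdr*. It reached 58.7 ± 9.77 RPM (SD, n = 3) in splenic control and 53.0 ± 9.47 in splenic *Ets1*-KO cells, which overlapped. The other 4 groups had means between 26.2 and 27.5 RPM and overlapped with each other. None of their libraries reached the lowest library of the *Ets1* experiment in the spleen, at 42.3 RPM. Parenchymal control cells held 0.466 times the *Rxrb* level of splenic control cells of the *Ets1* experiment. These splenic control cells held 2.24 times the level of splenic control cells of the *Grk2* experiment. Over the 18 libraries, with the mean of each table removed, Pearson's r between *Vdr* and *Rxrb* was 0.11.

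*Rxra*, which encodes the other partner, was hardly detected. It was listed at 0 in all 6 libraries of the parenchyma, and 0 of 8525959 reads allow at most 3 reads, or 0.352 RPM, counting error only. In the spleen it had 6 reads in the *Ets1* experiment, 3 in control library 1 and 3 in *Ets1*-KO library 3, and 5 reads in the *Grk2* experiment, 3 in control and 2 in *Grk2*-KO cells. *Rxra* therefore passed the minimum of 10 mean normalized counts in no table, *Vdr* and *Rxrb* in all 3, and a difference in *Rxra* was not detectable at this depth. Only 3′ reads within the annotated gene were counted, and whether *Rxra* transcripts end outside it was not tested. *Rxrg*, the remaining retinoid X receptor gene, stayed below the minimum as well, with 5.90 to 12.2 normalized counts in parenchymal control and 3.03 to 4.53 in parenchymal *Ets1*-KO libraries, from 27 and 10 reads in all. *Rxrg* ranged from 0 to 8.75 in the spleen.

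Genes of the pathway were grouped into 7 lists of 90 genes in all, of which 41, 40 and 39 passed the minimum in the parenchyma, the spleen of the *Ets1* experiment and the *Grk2* experiment. In the parenchyma 7 of the 41 had an adjusted p under 0.05, 6 higher and 1 lower in *Ets1*-KO cells, against 5.23% of all 7002 genes tested. The median log2 fold change of the 41 was −0.03, as it was for all genes tested. In the spleen 1 of the 40 was called in *Ets1*-KO cells and 1 of the 39 in *Grk2*-KO cells, against 2.22% and 1.56% of all genes. Without limma's variance trend 0 of the list genes were called in any comparison, and the adjusted p of the 7 genes in the parenchyma then lay between 0.0986 and 0.384.

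**Figure D4:**
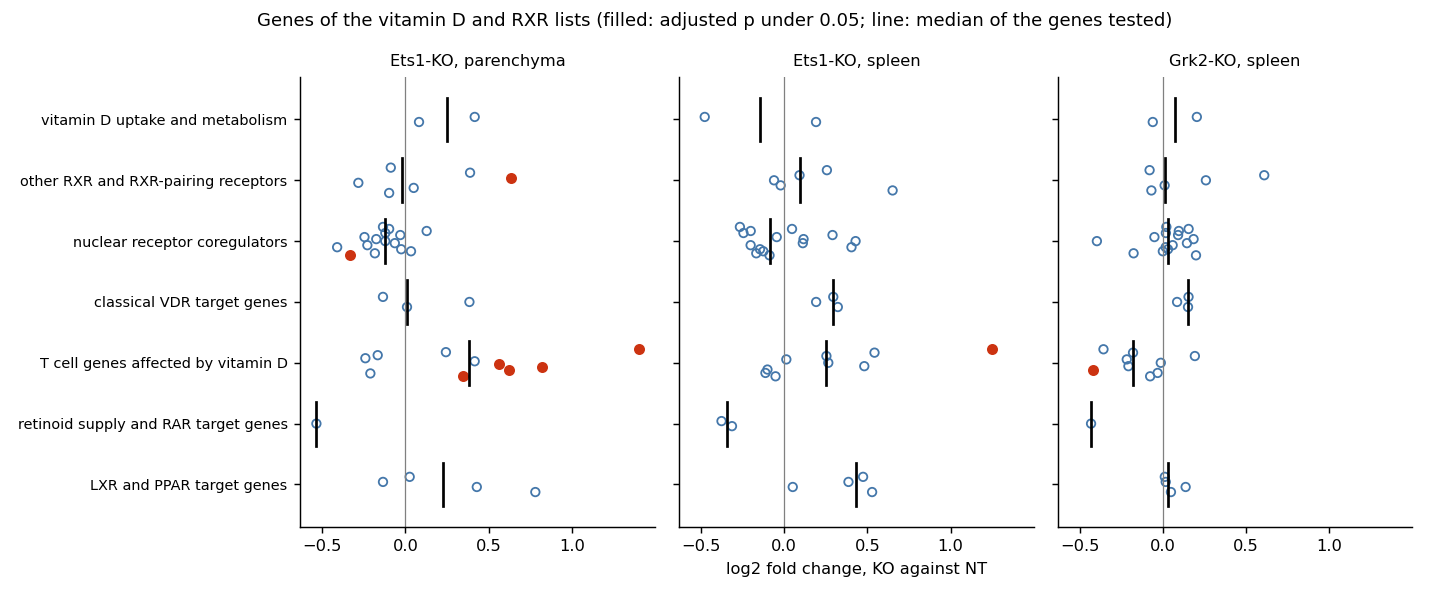
Log2 fold change of KO against control for the genes of the 7 lists that passed the count minimum in each comparison (points), with filled points for an adjusted p under 0.05 and lines for the median of the list's genes tested. The 5 called genes of the T cell list and *Nr4a2* lie to the right of 0 in the parenchyma, and *Ccr6* is the called gene in the spleen of the *Ets1* experiment.

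*Cyp24a1*, which degrades calcitriol and is the classical target of its receptor, was listed at 0 in all 18 libraries. *Cyp27b1*, which makes calcitriol, had 1 read, in 1 control library of the *Grk2* experiment. *Cyp27a1*, a hydroxylase that acts on vitamin D, stayed below the count minimum and was not tested. In the parenchyma it held 13.1, 8.46 and 6.88 normalized counts in control libraries 1 to 3 and 2.02, 5.05 and 3.40 in *Ets1*-KO libraries, from 30 and 10 reads in all. Its means in control and KO libraries were 4.84 and 1.70 in the spleen of the *Ets1* experiment and 9.65 and 7.38 in the *Grk2* experiment. In both of these the groups overlapped. Of the 9 genes of uptake and metabolism only *Dhcr7* and *Pdia3* passed the minimum. Neither was called by limma, edgeR or DESeq2 in any comparison, and 0 of the 2 had an unadjusted p under 0.05. DESeq2 gave some genes of low count no adjusted p, and here and below such genes count as not called by it. Of 16 classical target genes 3 passed the minimum, *Atp2b1*, *Cdkn1a* and *Nfkbia*, which encode a calcium pump, a cell cycle inhibitor and an inhibitor of NF-kB. The same 3 tools called 0 of them in each comparison, while 1 in the parenchyma and 2 in each spleen comparison had an unadjusted p under 0.05. In the parenchyma *Cdkn1a* averaged 62.2 normalized counts in control cells and 81.5 in edited cells (log2 fold change 0.38, limma adjusted p = 0.185).

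Among the other receptors that pair with retinoid X receptors *Nr4a2*, an orphan receptor induced by T cell activation, rose in the parenchyma. It was the 1 gene called of the 6 tested there, against 5.23% of all genes tested, and 3 of the 6 had an unadjusted p under 0.05. Control libraries 1 to 3 held 115.8, 156.1 and 124.8 normalized counts of *Nr4a2* and *Ets1*-KO libraries 222.4, 226.4 and 168.9. The log2 fold change was 0.63 (standard error 0.12, limma adjusted p = 1.74e-05). All KO libraries were above all control libraries, as for 7.87% of all genes tested. This adds no support, since the call in these same libraries named the gene. The log2 fold change of *Nr4a2* was 0.09 in the spleen of the *Ets1* experiment (adjusted p = 0.921) and 0.26 in *Grk2*-KO cells (adjusted p = 0.523). *Nr4a1*, a receptor of the same family named here after its values were seen, was not called. In *Grk2*-KO cells it was higher than in control cells in 3 of 3 pairs, although the groups overlapped (log2 fold change 0.61, standard error 0.18, limma adjusted p = 0.0501), and in the parenchyma its log2 fold change was 0.39 (limma adjusted p = 0.122). *Rara*, *Rarg* and *Nr1h2*, receptors for retinoic acid and oxysterols, were expressed in all groups and called in none of the 3 comparisons. Of 16 coregulator genes 15 passed the minimum, and *Tbl1xr1*, a part of corepressor complexes, was lower in parenchymal *Ets1*-KO cells (258.8 ± 27.9 against 205.7 ± 22.4 normalized counts, SD, n = 3; log2 fold change −0.33, limma adjusted p = 0.0459). That call held in 3 of 15 alternatives and in none that left out a replicate (adjusted p between 0.145 and 0.228). At 1 of 15 (6.67%) the share called was near the 5.23% of all genes tested, and edgeR and DESeq2 called 0 of the 15, of which 2 had an unadjusted p under 0.05. In both spleen comparisons 0 of the 15 coregulators were called by limma, edgeR or DESeq2, and 2 had an unadjusted p under 0.05.

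Of 17 T cell genes that vitamin D is known to affect, 10 passed the minimum in the parenchyma, and 5 of these rose in *Ets1*-KO cells. Of all genes tested there 5.23% were called in either direction, and 43.4% of those called were higher in *Ets1*-KO cells. *Ccr6*, a chemokine receptor of Th17 cells, went from 146.7, 140.1 and 167.1 normalized counts in control libraries 1 to 3 to 374.0, 398.3 and 430.7 in *Ets1*-KO libraries, a log2 fold change of 1.40 (standard error 0.11, limma adjusted p = 1.78e-36). *Il22*, a cytokine of the same lineage, rose by 0.82, and *Il17a*, its signature cytokine, by 0.56 on the log2 scale. *Il2ra*, a chain of the IL-2 receptor, went from 667.9, 637.6 and 667.4 to 1044, 1031 and 957.8 normalized counts, and its log2 fold change was 0.62 (standard error 0.08, limma adjusted p = 1.89e-12). *Tbx21*, the transcription factor of Th1 cells, rose by 0.35, although without replicate 2 its adjusted p was 0.107. For each of these 5 genes every *Ets1*-KO library was above every control library, which held for 551 of all 7002 genes tested (7.87%). These 5 were named because they were called in the same libraries, so that the lack of overlap adds no support. The median of the 10 genes was 0.38, against −0.03 for all genes tested. An unadjusted limma p under 0.05 was found for 9 of the 10 and for 1186 of all 7002 genes tested. Of the genes not called, *Ifng* (log2 fold change 0.42) and *Ctla4* (0.24) were higher in *Ets1*-KO cells. *Gata3* (−0.24), *Plcg1* (−0.21) and *Cxcr3* (−0.17) were lower.

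In the spleen of the *Ets1* experiment 9 of the 17 could be tested, and 3 had an unadjusted limma p under 0.05, against 984 of all 6979 genes. *Ccr6* was the 1 gene called. Its control libraries held 18.6, 19.4 and 9.40 normalized counts and its KO libraries 23.3, 57.7 and 38.1, a log2 fold change of 1.25 (standard error 0.32, limma adjusted p = 0.0343). This call was lost without any 1 of the replicates (adjusted p between 0.0971 and 0.191) and without the replicate block (adjusted p = 0.0805). In the *Grk2* experiment 9 could be tested, and 4 had an unadjusted limma p under 0.05, against 728 of all 6985 genes. There *Il2ra* was lower, with 213.5, 313.7 and 267.1 normalized counts in control and 152.0, 219.5 and 224.7 in *Grk2*-KO libraries. The groups overlapped (log2 fold change −0.42, limma adjusted p = 0.00512, exact permutation test p = 0.3). It did not pass without replicate 1 (adjusted p = 0.17), without replicate 2 (adjusted p = 0.484) or without the replicate block (adjusted p = 0.327). *Il17a* and *Il22*, which rose in the parenchyma, had log2 fold changes of 0.27 and 0.48 in the spleen of the *Ets1* experiment (limma adjusted p = 0.521 and 0.483). Whether the level of *Vdr* is related to that of these genes was not tested.

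The remaining lists held few genes above the minimum. Of 11 genes of retinoid supply and retinoic acid response 1 or 2 passed in each comparison, and of 8 targets of the oxysterol and fatty acid receptors 4 did. By limma, edgeR and DESeq2 0 of them were called in each comparison, where a gene without an adjusted p from DESeq2 counts as not called. An unadjusted p under 0.05 was found for 1 oxysterol or fatty acid receptor target in the parenchyma and 1 in the spleen of the *Ets1* experiment, and for 0 of the retinoid genes.

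The genes whose pattern was most like that of *Vdr* were found among 6207 genes tested in all 3 tables, by Pearson's r over the 18 libraries after the mean of each table was subtracted. They were *Txnrd1*, a thioredoxin reductase (r = 0.85), *Pik3ap1*, an adaptor of PI3-kinase signalling (r = 0.83), *Ybx3*, a protein that binds DNA and RNA (r = 0.80), *Psmd2*, a subunit of the proteasome (r = 0.80), and *Bicd1*, an adaptor of the dynein motor (r = 0.79). The genes of a library share its size factor, and 12 of the 18 libraries belong to the *Ets1* comparisons that chose *Vdr*, so that these values are a description. In the parenchyma and the spleen of the *Ets1* experiment the log2 fold changes were 0.35 and −0.53 for *Txnrd1*, 0.41 and −0.82 for *Pik3ap1* and 0.57 and −0.61 for *Ybx3*, each smaller in size than those of *Vdr*. *Bicd1*, in contrast, was at 0.01 in the parenchyma and −1.56 in the spleen. The 3 genes most like *Rxrb* were *Trappc1* (r = 0.82), *Zfp68* (r = 0.75) and *Cyhr1* (r = 0.75).

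**Figure D5:**
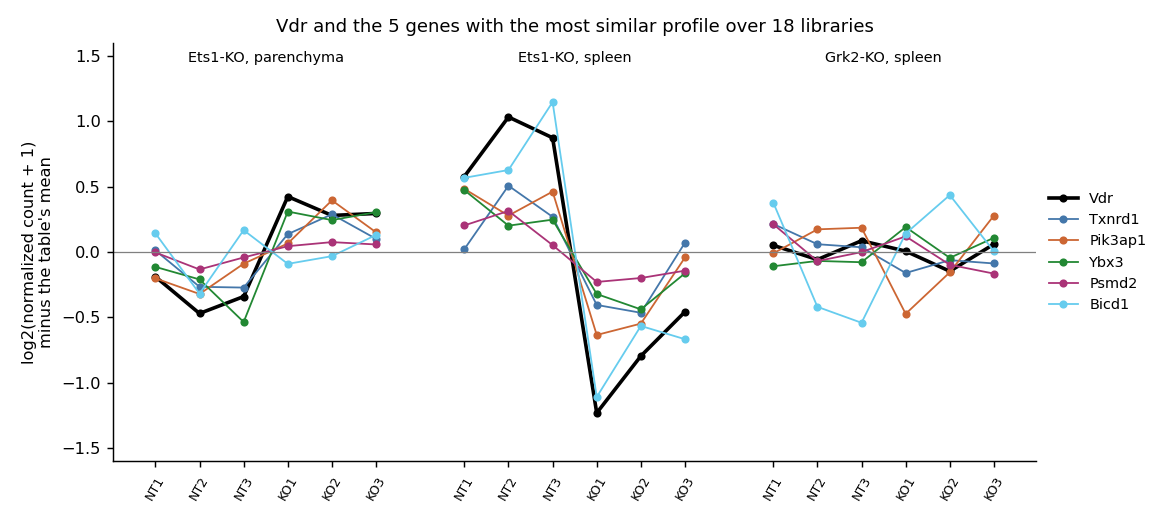
Values of log2(normalized count + 1) minus the mean of the table for *Vdr* (black) and the 5 genes with the highest Pearson's r to it in the 18 libraries (x axis: NT, control; KO, edited cells; 1 to 3, replicate number). The lines of *Vdr*, *Pik3ap1*, *Ybx3*, *Psmd2* and *Bicd1* lie lower in every KO than in every control library of the spleen of the *Ets1* experiment, and in the *Grk2* experiment *Vdr* stays near 0.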

How the data were processed

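The 3 genes and the gene lists were chosen with earlier results of these data known, and the named genes are the members with *Rxrg*, the edited genes, *Cyp24a1* and *Cyp27b1*, up to 6 called genes per list and comparison, and the genes most like a member. Other genes were named after their values were seen. Per the methods, the authors aligned single-end reads of 50 bases to Rnor_6.0 (release 102) with STAR 2.7.2b (untrimmed), assigned them to genes with HTSeq-count 1.0.0 and scaled the counts with DESeq2 2.11.40.7 (poscounts). The signal values, as deposited by the authors, are reads divided by a size factor. Since 100% of positive values were multiples of 1 step per library (tolerance 0.01), reads were recovered. Not used were columns of the authors' own comparisons (fold changes and p values), their pathway lists and 8 columns of human samples.

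In each table, genes whose mean reached 10 over its 6 libraries entered limma 3.58.1 as log2(normalized count + 1) (eBayes with trend), in a two-sided test with replicate number as a block, since the methods correct for the animal when applicable, and Benjamini-Hochberg adjustment over all genes tested (threshold 0.05). Fold changes on this scale understate those of low genes. The prior degrees of freedom of limma were infinite in the parenchyma, 22.0 in the spleen of the *Ets1* experiment and 141 in the *Grk2* experiment. With an infinite prior the variance of a gene is that of the trend over all genes. Its own spread between libraries then does not enter the p value. Single genes were also tested with an exact permutation test (20 labellings). edgeR 4.0.16 and DESeq2 1.42.0 on recovered reads, other scalings, pseudocounts (0.5 and 5), minimums (none and 50), thinned reads, no block, no trend and leaving out each replicate were alternatives. The limma and edgeR fits were also run on simulated data with the same dispersion for all genes and no replicate effect. That setting is simpler than these libraries, and nothing is read from it about them. The limit given for *Rxra* reads covers counting error only, and confidence intervals of fold changes rest on limma's standard errors. Promoter stretches are from RefSeq (GRCr8), which matched all 3 genes.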

Additional observations from a re-analysis of the deposited data

Results flagged for a closer look

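*Vdr* moved in opposite directions in the 2 tissues of the *Ets1* knockout, higher in all 3 replicate numbers of the parenchyma (0.67 on the log2 scale) and lower in all 3 of the spleen (−1.65), a difference of 2.32. This difference was not tested, because it chose the gene. *Il2ra* was higher in all 3 replicate numbers of the parenchyma (0.62) and lower in all 3 of the spleen (−0.10), a difference of 0.72 on the log2 scale that was not tested either, and in the spleen its groups overlapped (adjusted p = 0.793). The control libraries of the spleen in the *Ets1* experiment were shallower than its KO libraries, and the part of depth in these differences was not tested. The thinned reads were a single random draw.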

How the results depend on the processing

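The log2 ratio of *Vdr* kept its direction in every alternative that could be computed, between 0.59 and 0.70 in the parenchyma (15 alternatives) and between −1.97 and −1.32 in the spleen of the *Ets1* experiment (14). It moved by more than the spread of the replicates with thinned reads (0.59 and −1.97) and, in the spleen, with a pseudocount of 5 (−1.32, with a difference between tissues of 1.96). The cause was not tested. Leaving out 1 replicate at a time, the ratio of *Vdr* was 0.62 to 0.69 in the parenchyma and −1.82 to −1.57 in the spleen, and the difference 2.19 to 2.50. With a minimum of 50 *Vdr* was not tested in either spleen table. In the *Grk2* experiment the adjusted p stayed between 0.921 and 0.992 for *Vdr* and between 0.845 and 0.993 for *Rxrb*. *Rxra* passed in no table with the minimum of 10.

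The numbers of genes called depended on the processing. In the parenchyma 366 genes were called, 200 with no replicate block, 212 with no filter, 3 without the trend, 90 with DESeq2 and 163 to 277 with a replicate left out. In the spleen of the *Ets1* experiment the 155 became 71 with no replicate block, 242 with no filter, 0 without the trend (785 at an unadjusted p under 0.05), 238 with edgeR, 50 with DESeq2 and 3 to 232 with a replicate left out, the 3 without replicate 1. In the *Grk2* experiment the 109 became 19 with no replicate block, 60 with a minimum of 50, 0 without the trend (571 at an unadjusted p under 0.05), 9 with DESeq2 and 6 to 50 with a replicate left out, the 6 without replicate 2. Among these calls the share higher in KO cells was 43.4%, 45.8% and 59.6%, with TMM scaling 53.6% and 58% in the *Ets1* tables and with upper quartile scaling 45.7% in the *Grk2* table.

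Of the genes on the 7 lists, 7 were called in the parenchyma, 0 without the trend and 6 with a replicate left out. These 6 were not always among the 7. Without replicate 2 both *Tbl1xr1* (limma adjusted p = 0.228) and *Tbx21* (0.107) were lost. The 1 called in the spleen of the *Ets1* experiment, *Ccr6*, became 0 with no replicate block or no trend, and 0 to 3 with a replicate left out. The count was also 0 with a minimum of 50, where *Ccr6* was not tested, and with DESeq2, which gave it no adjusted p. The 1 called in the *Grk2* experiment became 0 with no replicate block, no trend or DESeq2, 2 with a pseudocount of 0.5 or 5, and 0 to 1 with a replicate left out. Libraries of the same number correlated in their deviations from the group means by −0.003 to 0.159 in the parenchyma, 0.077 to 0.175 in the spleen of the *Ets1* experiment and 0.006 to 0.145 in the *Grk2* experiment, so that not all pairs passed 0.1 and the numbers are not shown to mark animals. At 9 to 31 reads per library depth limits the splenic values of *Vdr*.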
